A study of Mus musculus with 6 samples.

Results

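RNA of Ocy454 cells treated with parathyroid hormone (PTH) was compared directly with RNA of Ocy454 cells treated with YKL-05-093, without the vehicle libraries in the test. The 4 libraries of this comparison (2 with PTH and 2 with YKL-05-093) are 4 of the 6 libraries of the series, and the other 2 are vehicle libraries whose values are given only for orientation. Ocy454 is a mouse osteocytic cell line, and a single cell subclone of it was used, so all libraries come from 1 clone. The cells had been kept for 14 days at 37 °C and were treated for 4 h with PTH 1-34 at 1 nM, with YKL-05-093 at 0.5 µM, or with a vehicle that the labels give as PBS with 25 mM HCl. The study's methods name DMSO as the solvent of compounds for culture work and tie PBS with HCl to the mouse work, so whether vehicle and YKL-05-093 libraries shared a solvent cannot be told from these sources. The labels call the libraries duplicates of a condition. They do not say whether the duplicates came from separate cultures, so the spread between them may be technical. Of the 39179 genes listed, 13853 had at least 0.5 RPKM (reads scaled by the length of the gene and the depth of the library) in at least 2 of the 4 libraries and were tested. Differences are given as PTH minus YKL-05-093 on the log2(RPKM + 0.1) scale, which understates the change of genes with low values.

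PTH acts on osteocytes through a Gs-coupled receptor, cAMP and protein kinase A. Protein kinase A can inhibit the salt-inducible kinases (SIKs). Otherwise the SIKs phosphorylate class IIa histone deacetylases and the CREB coactivators of the CRTC family and hold them in the cytoplasm. The study found that PTH led to phosphorylation of SIK2 in Ocy454 cells, but not of SIK3. YKL-05-093 is a small molecule that inhibits the SIKs directly, SIK3 included, and in vitro it also binds other kinases. The hormone therefore reaches SIK2 from above, together with everything else that cAMP and protein kinase A act on. The comparison asks at which genes the responses to hormone and inhibitor part.

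The recovered library totals (the number of reads behind the RPKM values) lay between 19073347 and 21607344 reads in these 4 libraries. Duplicates were close, with a median absolute log2 difference between replicates of 0.106 for PTH and 0.101 for YKL-05-093, against 0.328 for the vehicle pair. The osteoblast lineage genes Col1a1, Ibsp, Alpl and Pdpn were above 50 RPKM in all 6 libraries. Of 12 osteocyte and osteoblast markers listed, 9 passed the filter, among them the osteocyte markers Dmp1 and Phex. The osteocyte marker Sost, which encodes sclerostin, was at or under 3 reads in every library, and Fgf23 and Mepe were also too low to be tested. In the lists of other cell types, 1 of 7 macrophage markers, 1 of 6 endothelial markers, 2 of 6 adipocyte markers, 2 of 6 chondrocyte markers and 0 of 6 muscle markers passed the filter. With 2 libraries against 2, an exact permutation test cannot give a two-sided p below 0.333, so the p-values below come from limma, which borrows the spread of a gene from genes of like depth, and are adjusted over all genes tested by the method of Benjamini and Hochberg.

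A small number of genes passed both the test and the limit of 2-fold. At an adjusted p under 0.05, 171 genes (1.23% of those tested) were called, of which 104 (0.751%) were higher with PTH and 67 (0.484%) were higher with YKL-05-093. Without the limit on the fold change, 1379 genes (9.95%) passed, 669 (4.83%) higher with PTH and 710 (5.13%) higher with YKL-05-093. This count depended on the libraries more than the count past 2-fold did: it was 132 without PTH replicate 1, 155 without PTH replicate 2, 1054 and 814 without YKL-05-093 replicate 1 and 2, 147 with all 6 libraries in 1 fit and 165 without a trend in the prior variance. The median difference over all genes tested was 0.01, and 7010 of the tested genes (50.6%) had no overlap between the libraries of both groups, as all 171 called genes had. The called genes lay a median of 2.43-fold apart, and 23 of them more than 4-fold. Of all genes tested, 109 lay more than 4-fold apart, so a gene without a call is not thereby alike in both treatments. Genes just inside the limit were Rgs2 (difference -1.00086), Sfrp4 (1.0021) and Rcan2 (-1.00284), and genes just outside were Bglap2 (0.999379), Akap6 (-0.998692) and Gm23301 (0.997809). Single libraries weighed on these counts. Leaving out PTH replicate 1 left 70 called genes, leaving out PTH replicate 2 left 66, leaving out YKL-05-093 replicate 1 gave 250 and leaving out YKL-05-093 replicate 2 gave 160. Such a fit leaves 1 library in a group, which is taken to vary like the other group, so a lost call can mark a higher p with the difference kept. Of the 72 called genes named by the fixed rule, 29 kept their call without each of the 4 libraries in turn and all 72 kept their direction.

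**Figure D1:**
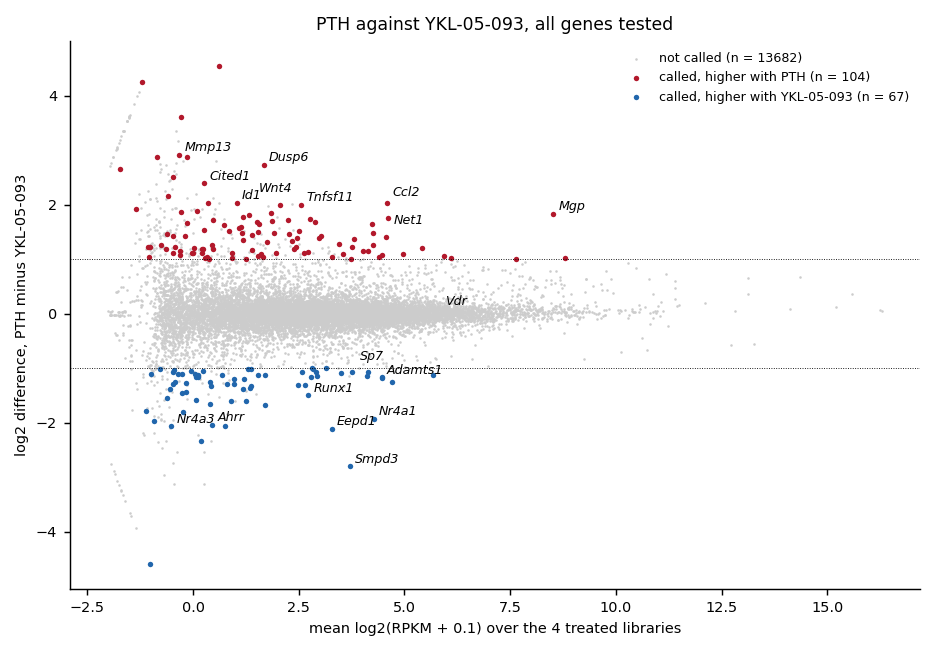
Each point is 1 of the 13853 genes tested, with its mean log2(RPKM + 0.1) over the 4 treated libraries on the x axis and its log2 difference, PTH minus YKL-05-093, on the y axis. Red points are the 104 genes called higher with PTH, blue points the 67 called higher with YKL-05-093, dotted lines mark 2-fold, and the diagonal streaks at the left are genes with 0 reads in both libraries of 1 group.

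Among called genes with at least 50 reads on average, Mmp13 (collagenase 3) and Tll1 (a tolloid-like metalloprotease) led, followed by Dusp6, Fam69c, Cited1, Id1, Fam198a, Ccl2, Wnt4, Tnfsf11, Hmga2, Dio3, Mgp, Slc7a7 and Net1. Tll1 had 2.33 and 2.36 RPKM with PTH, 0.301 and 0.177 with YKL-05-093 and 0.0466 and 0.109 with vehicle. Its difference was 2.87 (standard error 0.21, adjusted p = 4.1e-07). Net1, a guanine nucleotide exchange factor for RhoA, had 46.3 and 43.4 RPKM with PTH against 12.3 and 14.1 with YKL-05-093, close to the 14.1 and 11.2 of the vehicle libraries. Slc7a7, an amino acid transporter, had 4.54 and 3.79 RPKM with PTH and 1.11 and 1.15 with YKL-05-093. For Fam69c the values were 1.65 and 1.59 RPKM against 0.284 and 0.139. Hmga2, a chromatin protein, had 1.88 and 2.05 RPKM with PTH, 0.364 and 0.563 with YKL-05-093 and 2.04 and 1.8 with vehicle, so that here the inhibitor libraries were the ones away from vehicle. Dio3, a deiodinase that inactivates thyroid hormone, had 1.52 and 1.43 RPKM with PTH and 0.411 and 0.263 with YKL-05-093. Fam69c, Fam198a, Hmga2, Dio3 and Id1 lost their calls without PTH replicate 1 and without PTH replicate 2, and Slc7a7 and Mmp13 without PTH replicate 1. Their differences stayed past 2-fold with any library left out, with a lowest value of 2.16 for Fam69c, 1.84 for Fam198a, 1.64 for Hmga2, 1.62 for Dio3, 1.86 for Id1, 1.66 for Slc7a7 and 2.50 for Mmp13.

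In the other direction stood Smpd3, Eepd1, Nr4a3, Klhl30, Ahrr, Nr4a1, Slc22a23, Grhl3, Rnf43, Fam180a, Dtx4, Gli1, Runx1, Fgd3 and Hspb7. Smpd3 (ENSMUSG00000031906, GRCm38 coordinates as in all genes below, chr8:106252548-106337988), a neutral sphingomyelinase needed for bone mineralization, had 5.07 and 4.63 RPKM with PTH, 29.9 and 39.5 with YKL-05-093 and 57.8 and 51.0 with vehicle. The difference was -2.80 (standard error 0.10, adjusted p = 6.21e-10), and the PTH libraries were the low ones. Eepd1 had 4.48 and 4.64 RPKM with PTH, 19.3 and 20.9 with YKL-05-093 and 18.5 and 18.8 with vehicle. Klhl30 repeated this order at a lower level, with 0.736 and 0.732 RPKM with PTH, 3.34 and 3.38 with YKL-05-093 and 3.00 and 3.25 with vehicle. Runx1, a transcription factor of the Runt family, had 3.85 and 3.79 RPKM with PTH, 11.02 and 10.93 with YKL-05-093 and 12.3 and 7.64 with vehicle. Grhl3, a grainyhead transcription factor, was the opposite case: its inhibitor libraries, at 5.00 and 6.61 RPKM, were above the vehicle libraries at 2.37 and 2.84 and the PTH libraries at 2.05 and 1.46. Rnf43, a ubiquitin ligase that removes Wnt receptors, had 0.774 and 0.538 RPKM with PTH and 2.08 and 2.43 with YKL-05-093. Fam180a, Gli1 and Hspb7 lost their calls without PTH replicate 1 and without PTH replicate 2, Slc22a23 and Fgd3 without PTH replicate 1, and Grhl3 and Dtx4 without PTH replicate 2.

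**Figure D2:**
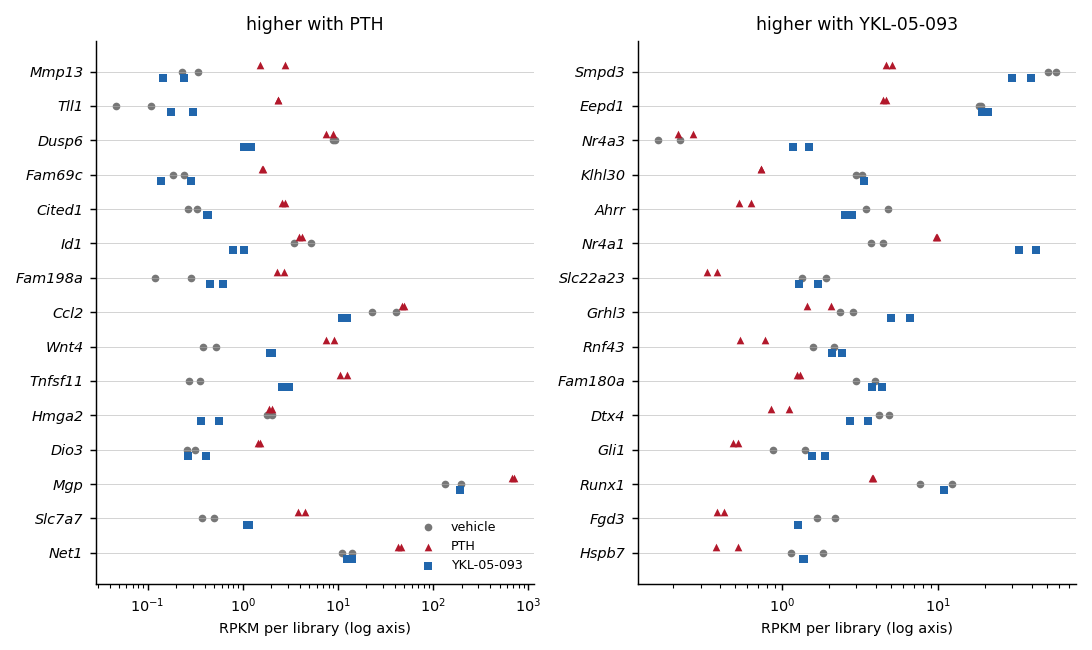
RPKM in each library (x axis, log scale) for the 15 called genes with the largest difference in each direction; triangles are PTH, squares YKL-05-093 and circles vehicle libraries, 2 of each per gene. For Smpd3, Eepd1 and Net1 the PTH libraries stand away from the rest, and for Dusp6, Id1 and Hmga2 the YKL-05-093 libraries do.

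The genes that report signalling through the kinase ERK had the largest median difference of the lists compared. These are feedback inhibitors of the pathway (the DUSP phosphatases, the Sprouty and SPRED proteins) and immediate targets such as the EGR, ETS and FOS-related transcription factors. Of 30 genes listed, 25 were tested, and 11 were called, all of them higher with PTH, where 0.751% of all genes tested were. Without the fold limit 18 were higher with PTH and 0 higher with YKL-05-093, and 7 did not pass. The 18 were 6 without PTH replicate 1 and 7 without PTH replicate 2. The median difference of the 25 was 0.86, against 0.01 over all genes tested. The members of all lists were chosen with earlier results of these data known, so the rank of this list is a description. Without PTH replicate 1 and PTH replicate 2 the count of 11 fell to 4 and 5, and the median was 0.90 and 0.88. Dusp6, Etv5, Plaur and Epha2 kept their calls without each library in turn. Spry4, Egr1, Egr2 and Dusp4 lost theirs without PTH replicate 1 and without PTH replicate 2, Dusp5 and Spred2 also without YKL-05-093 replicate 2, and Fosl1 without PTH replicate 1.

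Dusp6 (ENSMUSG00000019960, chr10:99263231-99267489), the phosphatase that inactivates ERK in the cytoplasm, had 7.46 and 8.84 RPKM with PTH, 1.04 and 1.23 with YKL-05-093 and 8.86 and 9.25 with vehicle. Its difference was 2.74 (standard error 0.14, adjusted p = 1.25e-08), and the inhibitor libraries were the low ones. Spry4 had 0.757 and 0.583 RPKM with PTH, 0.118 and 0.0841 with YKL-05-093 and 1.02 and 1.15 with vehicle. Etv5, an ETS factor, had 2.54 and 2.31 RPKM with PTH, 0.679 and 0.656 with YKL-05-093 and 2.40 and 2.41 with vehicle. In Dusp6, Etv5, Dusp5, Spred2 and Ccnd1 the PTH values were near those of vehicle and the YKL-05-093 values were low. Egr1 and Egr2, zinc finger transcription factors, were lower than vehicle in all 4 treated libraries, but less so with PTH. Egr1 had 3.12 and 4.40 RPKM with PTH, 0.873 and 1.55 with YKL-05-093 and 6.78 and 6.08 with vehicle, and Egr2 had 3.38 and 3.86 against 1.02 and 1.49, with 7.10 and 8.65 in vehicle. Plaur, the urokinase receptor, followed a different order, with 41.9 and 35.6 RPKM with PTH, 14.6 and 14.3 with YKL-05-093 and 8.72 and 11.1 with vehicle, so that here the PTH libraries were the ones away from vehicle. Epha2, an ephrin receptor, had 5.40 and 4.97 RPKM with PTH and 1.92 and 2.10 with YKL-05-093, on either side of the 3.83 and 3.74 of vehicle. Fosl1, an AP-1 subunit, lay in the same order, with 6.52 and 5.97, 2.11 and 2.21, and 3.79 and 4.51 RPKM. Members that did not pass included Myc (difference -0.26), Dusp7 (-0.24) and Il1rl1 (-0.08), which encodes the interleukin 33 receptor.

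**Figure D3:**
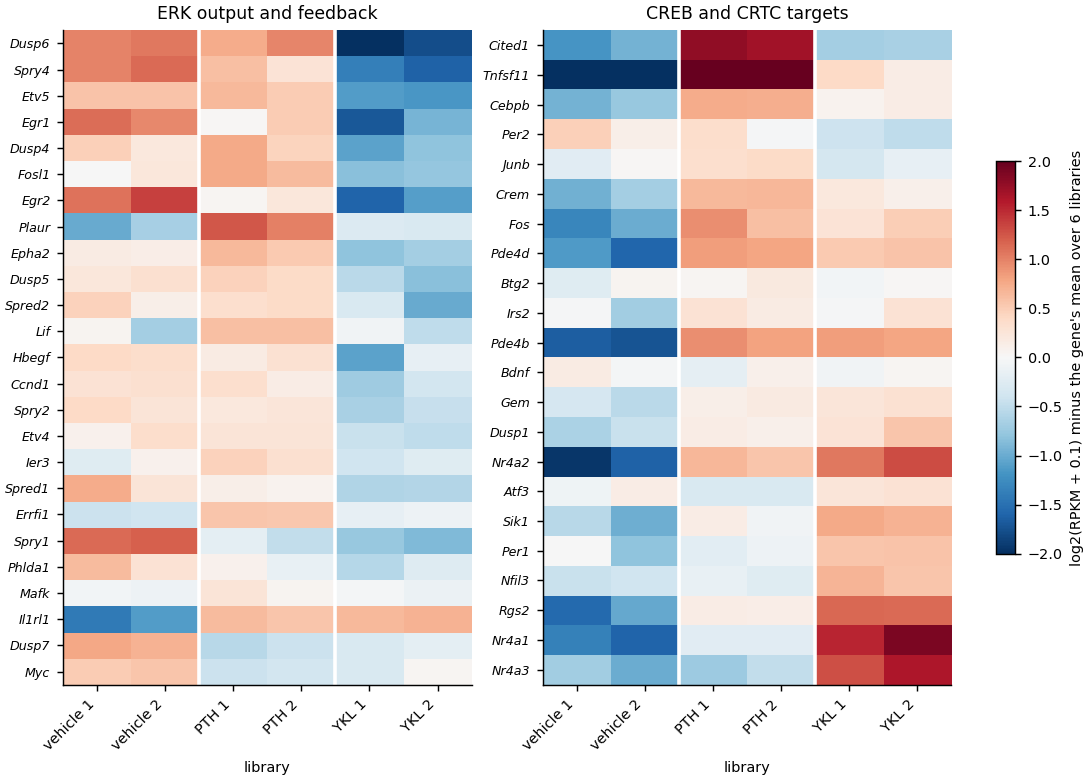
Rows are the tested members of the ERK list (25 genes, left) and of the CREB and CRTC list (22 genes, right), ordered by difference, and columns are the 6 libraries. Colour is log2(RPKM + 0.1) minus the gene's mean over the 6 libraries, from -2 to 2. In the upper rows of the ERK list the YKL-05-093 columns are the lowest, and in the CREB list the top rows are red with PTH and the bottom rows red with YKL-05-093.

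Promoters of 3 ERK-list genes are shown, picked because they hold different elements for the same direction of difference. The windows run from 250 bases before to 50 bases after a RefSeq start site, and capitals mark the full cAMP response element TGACGTCA, its short form TGACG, the AP-1 site TGANTCA or the CArG box that serum response factor binds, on either strand. The short form lies inside the full form.
Epha2 (GRCm38.p6, chr4:141300971-141301270, plus strand): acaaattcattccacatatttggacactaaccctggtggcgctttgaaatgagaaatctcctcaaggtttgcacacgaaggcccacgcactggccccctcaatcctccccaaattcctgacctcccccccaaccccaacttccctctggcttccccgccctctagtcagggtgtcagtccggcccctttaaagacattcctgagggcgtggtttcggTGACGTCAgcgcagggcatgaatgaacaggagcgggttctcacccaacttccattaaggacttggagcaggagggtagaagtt
Plaur (GRCm38.p6, chr7:24462233-24462532, plus strand): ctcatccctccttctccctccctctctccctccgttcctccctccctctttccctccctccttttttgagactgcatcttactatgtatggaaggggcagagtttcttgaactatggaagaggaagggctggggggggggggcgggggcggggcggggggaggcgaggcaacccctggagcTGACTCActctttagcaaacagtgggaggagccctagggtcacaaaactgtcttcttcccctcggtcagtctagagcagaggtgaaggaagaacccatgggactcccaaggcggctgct
Egr2 (GRCm38.p6, chr10:67537619-67537918, plus strand): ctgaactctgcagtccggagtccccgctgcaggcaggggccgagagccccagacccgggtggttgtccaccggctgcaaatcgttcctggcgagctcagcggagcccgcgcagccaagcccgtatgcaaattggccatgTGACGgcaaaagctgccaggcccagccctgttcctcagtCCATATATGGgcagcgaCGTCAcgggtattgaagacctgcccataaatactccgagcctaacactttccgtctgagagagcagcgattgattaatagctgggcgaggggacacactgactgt
Epha2 holds TGACGTCA at position -33 from the start site, Plaur an AP-1 site at -69, and this Egr2 window a CArG box at -72 between short forms at -111 and -55. The windows of Dusp6 and Etv5, and another window of Egr2, hold none of these elements. Promoters were matched for 60 of the genes higher with PTH and 49 of those higher with YKL-05-093. TGACGTCA was found in 3.33% of the former, 2.04% of the latter and 3.75% of the tested genes with a promoter. The short form TGACG was found in 25.0%, 34.7% and 36.9%. The AP-1 site TGANTCA was found in 13.3%, 12.2% and 5.76%, and the CArG box in 6.67%, 4.08% and 1.59%. These shares describe letters in the windows and do not show that a factor bound there.

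BMP-SMAD targets and regulators, which report the bone morphogenetic protein pathway, differed mostly towards PTH. Of 22 tested members, 4 were called higher with PTH and 0 higher with YKL-05-093, where 0.751% and 0.484% of all genes tested were. Without the fold limit 10 were higher with PTH and Bmpr1a alone was higher with YKL-05-093, while 11 did not pass. For this list and those below, the shares without that limit over all genes tested were 4.83% and 5.13%. The 10 were 2 without PTH replicate 1 and 4 without PTH replicate 2. The median difference was 0.33. Id1 (ENSMUSG00000042745, chr2:152736251-152737410), an inhibitor of basic helix-loop-helix factors and a direct SMAD target, had 3.89 and 4.22 RPKM with PTH, 1.04 and 0.787 with YKL-05-093 and 3.49 and 5.19 with vehicle. Its difference was 2.04 (standard error 0.20, adjusted p = 8.52e-06). Atoh8, a helix-loop-helix factor, had 4.78 and 5.33 RPKM with PTH, 1.59 and 1.39 with YKL-05-093 and 7.07 and 6.59 with vehicle. For both genes the inhibitor libraries were the furthest from vehicle. Hes1, also a target of Notch, had 8.84 and 10.1 RPKM with PTH and 2.98 and 3.49968 with YKL-05-093, with vehicle between them at 4.03 and 6.26. Id2 (0.85), Id3 (0.64), Smad6 (0.69) and Smad7 (0.91) were higher with PTH by less than 2-fold, and the ligands Bmp2 (-0.19) and Bmp6 (-0.23) did not pass. Atoh8 and Hes1 kept their calls without each library in turn, while Id1 lost its call without PTH replicate 1 and without PTH replicate 2. Both of those fits left 2 of the 4 calls.

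Targets of the transcription factor CREB and its CRTC coactivators split in both directions. The study describes CREB as a direct target of protein kinase A, and the CRTC coactivators, but not CREB, as known SIK substrates. Of 22 tested members, 2 were called higher with PTH and 3 higher with YKL-05-093, where 0.751% and 0.484% of all genes tested were. Without the fold limit the numbers were 8 and 8, with 6 not passing, and the median difference was 0.02. They were 2 and 4 without PTH replicate 1 and 2 and 5 without PTH replicate 2. Cited1, a transcriptional coregulator, had 2.75 and 2.56 RPKM with PTH, 0.419 and 0.430 with YKL-05-093 and 0.267 and 0.334 with vehicle. Its difference was 2.39 (standard error 0.21, adjusted p = 2.81e-06). Tnfsf11 is described with the osteoclast factors. Smaller differences in the same direction were those of Cebpb (0.63), Junb (0.61), Crem (0.50) and Fos (0.38).

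The NR4A orphan nuclear receptors, immediate targets of CREB, were higher with the kinase inhibitor than with the hormone. Nr4a1 (ENSMUSG00000023034, chr15:101254269-101274795) had 9.85 and 9.75 RPKM with PTH, 33.2 and 42.6 with YKL-05-093 and 4.45 and 3.72 with vehicle. Its difference was -1.93 (standard error 0.10, adjusted p = 1.25e-08). Nr4a3 had 0.215 and 0.268 RPKM with PTH, close to the 0.221 and 0.160 of vehicle, and 1.17 and 1.48 with YKL-05-093. Nr4a2 passed the test with a smaller difference of -0.57, from 5.49 and 5.13 RPKM with PTH, 7.26 and 8.62 with YKL-05-093 and 0.819 and 1.05 with vehicle. Rgs2, which dampens G-protein signalling and was also the only call among the 27 tested cAMP and G-protein components, had 6.15 and 6.06 RPKM with PTH, 12.4 and 12.3 with YKL-05-093 and 1.81 and 2.66 with vehicle. It lost its call without PTH replicate 2 and without YKL-05-093 replicate 1, since its difference of -1.00086 lies on the limit. Nfil3 (-0.82), Per1 (-0.73), Sik1 (-0.68) and Atf3 (-0.58) were also higher with YKL-05-093 by less than 2-fold. Pde4b, a cAMP phosphodiesterase, did not separate the treatments, with 3.21 and 2.93 RPKM against 3.00 and 2.89, and 0.453 and 0.422 with vehicle. The receptor of the hormone, Pth1r, was lower with PTH, at 38.5 and 33.4 RPKM against 61.4 and 70.7 with YKL-05-093 and 52.1 and 63.4 with vehicle (difference -0.88, adjusted p = 5.36e-06).

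The promoters of Nr4a1 and Nr4a3 are shown because the short cAMP response element recurs in them, with capitals as above.
Nr4a1 (GRCm38.p6, chr15:101266596-101266895, plus strand): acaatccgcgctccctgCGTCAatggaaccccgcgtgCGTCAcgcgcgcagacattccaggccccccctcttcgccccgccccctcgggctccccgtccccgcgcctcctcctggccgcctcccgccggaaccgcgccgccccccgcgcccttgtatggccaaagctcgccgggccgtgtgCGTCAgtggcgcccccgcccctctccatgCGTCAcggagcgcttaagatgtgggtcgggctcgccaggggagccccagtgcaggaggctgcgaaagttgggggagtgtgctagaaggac
Nr4a3 (GRCm38.p6, chr4:48045055-48045354, plus strand): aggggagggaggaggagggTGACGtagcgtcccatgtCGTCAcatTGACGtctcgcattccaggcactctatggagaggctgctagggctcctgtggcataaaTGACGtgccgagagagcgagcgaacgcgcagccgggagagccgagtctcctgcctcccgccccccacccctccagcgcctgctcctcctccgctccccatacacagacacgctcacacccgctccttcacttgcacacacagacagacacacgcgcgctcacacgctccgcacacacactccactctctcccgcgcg
The Nr4a1 window holds TGACG on 1 strand or the other at -233, -213, -69 and -40, and the Nr4a3 window holds it at -231, -213, -205 and -147. Neither window holds the full TGACGTCA. The Nr4a2 window, not shown, holds the short form at -200, -144, -123 and -111, although Nr4a2 was less than 2-fold apart. That of Hdac4, which was higher with PTH, holds it at -103, -51 and 15.

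The list of the SIKs and their substrates also held the upstream LKB1 complex, the NUAK and MARK kinases and the MEF2 factors. Its tested transcripts differed by less than 2-fold except for Nuak1. Of 22 tested members, 3 were higher with PTH and 6 higher with YKL-05-093 without the fold limit, and 13 did not pass. Those 3 and 6 became 0 and 3 without PTH replicate 1 and 1 and 2 without PTH replicate 2. Nuak1, a kinase related to AMPK, had 3.453 and 3.499 RPKM with PTH, 8.05 and 9.40 with YKL-05-093 and 33.7 and 23.7 with vehicle (difference -1.30, standard error 0.09, adjusted p = 2.63e-07), so that all 4 treated libraries were below vehicle and the PTH libraries furthest. Sik1 had 2.81 and 2.40 RPKM with PTH and 4.31 and 4.14 with YKL-05-093, Sik2 had 1.85 and 1.67 against 1.21 and 1.39, and Sik3 had 6.06 and 6.22 against 5.55 and 6.13. The difference was -0.68 for Sik1 and 0.41 for Sik2, and that of Sik3 (0.07, 95% confidence interval -0.09 to 0.24) did not pass. The class IIa deacetylases went separate ways. Hdac4 had 28.1 and 26.6 RPKM with PTH and 18.3 and 18.5 with YKL-05-093 (difference 0.57). Hdac5 had 14.4 and 13.3 against 23.6 and 23.8 (-0.77), with vehicle at 20.87 and 17.99. Mef2c, the transcription factor these deacetylases repress, had 17.3 and 15.7 RPKM with PTH, 27.6 and 31.1 with YKL-05-093 and 56.1 and 35.5 with vehicle (-0.83). Crtc2 was higher with PTH by 0.32, near the threshold (adjusted p = 0.0443).

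Among factors through which osteoblasts and osteocytes act on osteoclasts, the genes more than 2-fold apart were higher with PTH. Of 15 tested members, 5 were called higher with PTH and 0 higher with YKL-05-093, where 0.751% and 0.484% of all genes tested were. Without the fold limit 6 were higher with PTH and 2 (Sema3a and Tnfrsf11b) were higher with YKL-05-093, 7 did not pass, and the median difference was 0.10. Those 6 and 2 became 3 and 0 without PTH replicate 1 and 4 and 0 without PTH replicate 2. Tnfsf11 (ENSMUSG00000022015, chr14:78277445-78308043), which encodes the osteoclast differentiation factor RANKL, had 12.6 and 10.6 RPKM with PTH, 3.09 and 2.57 with YKL-05-093 and 0.358 and 0.272 with vehicle. Its difference was 2.00 (standard error 0.13, adjusted p = 1.05e-07). All 4 treated libraries were above vehicle, and the PTH libraries were 4.00-fold above those of the inhibitor. Tnfrsf11b, the decoy receptor of RANKL, had 19.7 and 17.1 RPKM with PTH, 21.1 and 28.4 with YKL-05-093 and 35.9 and 41.2 with vehicle (difference -0.41, adjusted p = 0.0289).

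Mmp13 (ENSMUSG00000050578, chr9:7272514-7283331) had 2.81 and 1.53 RPKM with PTH and 0.240 and 0.145 with YKL-05-093, the latter near the 0.343 and 0.228 of vehicle. Its difference was 2.92 (standard error 0.31, adjusted p = 1.6e-05), and it lost its call without PTH replicate 1. The chemokine Ccl2 (ENSMUSG00000035385, chr11:82035571-82037453), which attracts monocytes, had 46.9 and 49.5 RPKM with PTH, 12.53 and 10.99 with YKL-05-093 and 22.8 and 40.6 with vehicle. Its difference was 2.03 (standard error 0.09, adjusted p = 2.7e-09). Ccl7, a related chemokine, had 34.7 and 32.0 RPKM with PTH, 12.4 and 8.94 with YKL-05-093 and 17.0 and 31.4 with vehicle. Vehicle lay between hormone and inhibitor for both chemokines, with a wide gap between its own libraries. Csf1, which supports osteoclast precursors, had 17.3 and 16.9 RPKM with PTH, 6.65 and 7.24 with YKL-05-093 and 20.3 and 17.9 with vehicle, so the inhibitor libraries were the low ones. Il6 (0.03) and Ptgs2 (0.34) did not pass. Ccl7 lost its call without PTH replicate 1 and without PTH replicate 2, and the 5 calls were 3 and 4 in those fits.

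The Mmp13 promoter is shown for the AP-1 site at -35, in capitals.
Mmp13 (GRCm38.p6, chr9:7272264-7272563, plus strand): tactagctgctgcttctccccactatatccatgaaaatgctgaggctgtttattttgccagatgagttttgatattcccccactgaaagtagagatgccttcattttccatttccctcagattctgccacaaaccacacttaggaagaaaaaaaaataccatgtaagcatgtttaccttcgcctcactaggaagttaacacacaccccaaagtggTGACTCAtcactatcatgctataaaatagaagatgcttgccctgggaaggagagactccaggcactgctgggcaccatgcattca

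Wnt ligands, antagonists and targets differed in both directions. Of 27 tested members, 7 were called higher with PTH and 2 higher with YKL-05-093, where 0.751% and 0.484% of all genes tested were. Without the fold limit 9 and 8 passed (3 and 4 without PTH replicate 1, 3 and 3 without PTH replicate 2), and the median difference was -0.17. Wnt4 (ENSMUSG00000036856, chr4:137277489-137299726), a Wnt ligand, had 9.15 and 7.50 RPKM with PTH, 2.05 and 1.93 with YKL-05-093 and 0.382 and 0.520 with vehicle. Its difference was 2.00 (standard error 0.11, adjusted p = 3.21e-08). Lef1, a nuclear effector of the pathway, had 3.00 and 2.94 RPKM with PTH and 0.958 and 0.993 with YKL-05-093, near the 1.24 and 1.16 of vehicle. Notum, a secreted enzyme that inactivates Wnt ligands, had 5.09 and 4.53 RPKM with PTH and 1.31 and 2.02 with YKL-05-093. Wisp2 had 67.8 and 62.2 against 29.6 and 26.5. The secreted antagonist Sfrp1 had 1.64 and 1.57 RPKM with PTH and 0.621 and 0.761 with YKL-05-093. Sfrp4, of the same family, had 2.12 and 1.44 RPKM against 0.817 and 0.826, and the ligand Wnt9a had 1.34 and 0.848 against 0.484 and 0.418. Wif1 (0.56) and Rspo3 (0.68) passed below 2-fold. Higher with YKL-05-093 were the ligand Wnt10b, at 8.45 and 8.64 RPKM against 4.35 and 3.73 with PTH, and Wisp1, at 10.2 and 12.3 against 5.30 and 4.74. Tcf7 (-0.99), Rspo2 (-0.90) and Wnt7b (-0.78) were higher with YKL-05-093 by less than 2-fold. The target Axin2 did not pass (-0.26). Wnt4, Lef1 and Wisp2 kept their calls without each library in turn. Notum, Sfrp1 and Wnt9a lost theirs without PTH replicate 1 and without PTH replicate 2 (Sfrp1 also without YKL-05-093 replicate 1 and Wnt9a without YKL-05-093 replicate 2), Wnt10b and Wisp1 without PTH replicate 2, and Sfrp4 without any 1 of the 4. The 7 calls higher with PTH were 3 without either PTH library.

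Genes of bone matrix and mineralization differed in both directions. Over all genes tested, 0.751% were called higher with PTH and 0.484% higher with YKL-05-093. Of 30 tested members, 2 were called higher with PTH and 4 higher with YKL-05-093, and without the fold limit 8 and 7 passed (2 and 2 without PTH replicate 1, 4 and 1 without PTH replicate 2). Mgp (ENSMUSG00000030218, chr6:136872435-136875823), which encodes the mineralization inhibitor matrix Gla protein, had 715 and 669 RPKM with PTH, 192 and 194 with YKL-05-093 and 132 and 196 with vehicle. Its difference was 1.84 (standard error 0.07, adjusted p = 6.21e-10). Bglap (osteocalcin) had 27.1 and 25.3 RPKM with PTH and 11.9 and 11.4 with YKL-05-093, and Bglap2 had 68.2 and 54.5 against 31.035 and 29.8341. These 2 genes are near-identical copies, and how reads were divided between them is uncertain. Higher with YKL-05-093 were, besides Smpd3, Phospho1 (a phosphatase that releases phosphate for mineral), the homeobox gene Dlx3 and Sp7, which encodes the osteoblast transcription factor osterix. Sp7 had 12.2 and 11.1 RPKM with PTH, 22.4 and 29.6 with YKL-05-093 and 46.0 and 45.5 with vehicle. Phospho1 had 1.09 and 1.23, 2.69 and 3.26, and 3.66 and 4.12 RPKM in the same order. Runx2 (-0.69), a transcription factor of the osteoblast lineage, passed below 2-fold in the same direction. The collagens Col1a1 (0.15) and Col1a2 (-0.01), Alpl (-0.04) and Sparc (-0.08) did not pass. Sp7, Phospho1 and Dlx3 lost their calls without PTH replicate 1 and without PTH replicate 2, which left 1 of the 4 genes higher with YKL-05-093. Sp7 also lost its call without YKL-05-093 replicate 2, and Bglap lost its call without PTH replicate 1.

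The direction also varied within smaller families. In the aryl hydrocarbon receptor pathway, 1 of 7 tested members was called in each direction. Over all genes tested, 0.751% were called higher with PTH and 0.484% higher with YKL-05-093. Aldh3a1, an aldehyde dehydrogenase, had 13.6 and 12.5 RPKM with PTH, 3.93 and 4.07 with YKL-05-093 and 3.43 and 3.02 with vehicle (difference 1.68). Ahrr, the repressor of the receptor, had 0.629 and 0.527 RPKM with PTH, 2.54 and 2.82 with YKL-05-093 and 4.76 and 3.45 with vehicle (-2.04, standard error 0.12, adjusted p = 4.17e-08). Cyp1b1, a cytochrome P450, was higher with PTH by 0.71. Among 24 tested extracellular proteases and inhibitors, Mmp13 and the aggrecanase Adamts5 were called higher with PTH and Adamts1 higher with YKL-05-093. Adamts5 had 5.18 and 3.68 RPKM with PTH and 1.85 and 2.11 with YKL-05-093, and it lost its call without PTH replicate 1. Adamts1, a versican-cleaving protease, had 15.2 and 14.0 RPKM with PTH, close to the 14.3 and 10.7 of vehicle, and 32.2 and 33.7 with YKL-05-093 (-1.17, standard error 0.07, adjusted p = 5.39e-08).

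Among 36 tested growth factors and tyrosine kinase receptors, Epha2 was called higher with PTH and 2 ligands, Pdgfa and Fgf18, were called higher with YKL-05-093. Over all genes tested, 0.751% and 0.484% were called in these directions. Pdgfa had 4.44 and 4.64 RPKM with PTH, 9.86 and 10.8 with YKL-05-093 and 23.3 and 28.7 with vehicle (-1.17). Fgf18 rested on 14.3 reads on average and lost its call without any 1 of the 4 libraries. Without the fold limit 10 members were higher with PTH, among them Fgfr1 (0.58), Kitl (0.77) and Tgfa (0.87), and 6 were higher with YKL-05-093, among them Hgf (-0.52) and Fgfr3 (-0.64). Those 10 and 6 became 2 and 1 without either PTH library in turn. Of 23 tested NF-kB and inflammatory genes, 3 were called higher with PTH (Ccl2, Ccl7 and Nfkbie, an inhibitor of NF-kB), and without the fold limit 8 were higher with PTH and 0 higher with YKL-05-093. The 8 were 2 without PTH replicate 1 and 3 without PTH replicate 2. Of the calls, Ccl2 alone was left in both of these fits, and Nfkbie also lost its call without YKL-05-093 replicate 1. Cxcl1, a neutrophil chemokine, had 46.8 and 46.7 RPKM with PTH, 27.0 and 24.1 with YKL-05-093 and 5.72 and 8.47 with vehicle (0.87). Of 22 tested interferon-stimulated genes, 0 were called, and 7 were higher with PTH without the fold limit, led by Ifit1 (0.81), while the upstream factor Irf9 (0.23) did not pass. The 7 were 0 without PTH replicate 1, 0 without PTH replicate 2, 3 without either YKL-05-093 library in turn, and 0 without a trend or with all 6 libraries in 1 fit.

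**Figure D4:**
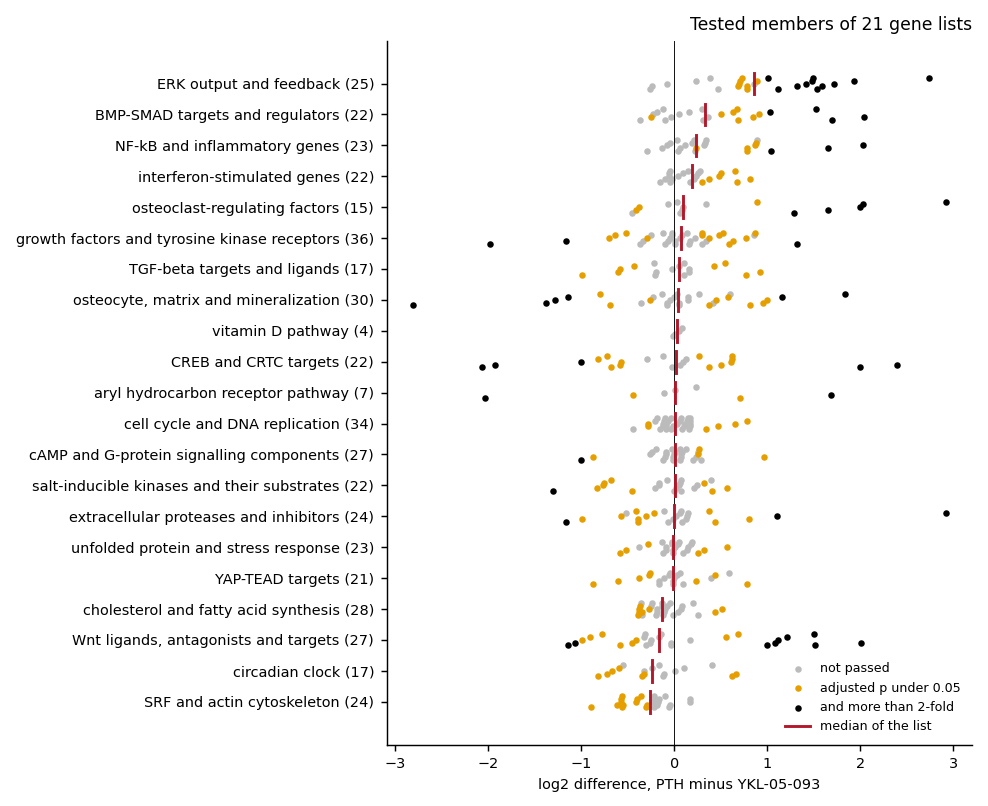
Each point is a tested member of 1 of 21 gene lists (number tested in brackets), at its log2 difference, PTH minus YKL-05-093. Black points are called, orange points have an adjusted p under 0.05 and less than 2-fold, grey points did not pass, and the red bar is the median of the list, from 0.86 for the ERK list to -0.26 for the SRF list.

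Genes of the actin cytoskeleton that serum response factor (SRF) controls were lower with PTH where they differed, by less than 2-fold. Of 24 tested members, 0 were called. Without the fold limit 12 were higher with YKL-05-093 and 0 higher with PTH, where 5.13% and 4.83% of all genes tested were. The median difference was -0.26. The 12 were 1 without PTH replicate 1, 1 without PTH replicate 2, 7 without either YKL-05-093 library in turn, 3 with the trend taken on the mean value, and 0 without a trend or with all 6 libraries in 1 fit, while the median stayed between -0.25 and -0.30 with any library left out. Myl9, a myosin light chain, had 83.4 and 83.9 RPKM with PTH and 125 and 124 with YKL-05-093 (-0.57). Acta2, the smooth muscle actin, had 155 and 170 against 216 and 214 (-0.41), and Lmod1 differed most (-0.89). Tpm1 (-0.06) and Myh9 (-0.09) did not pass. YAP-TEAD targets, 21 tested, had 0 calls, with 3 higher with PTH and 5 higher with YKL-05-093 below 2-fold. Ctgf (0.78) and Nt5e (-0.87) stood at the ends, and Cyr61 (0.10) did not pass. Those 3 and 5 became 0 and 2 without PTH replicate 1 and 0 and 1 without PTH replicate 2. TGF-beta targets and ligands, 17 tested, had 0 calls and 4 genes on each side. Among them, Skil (0.92) and the receptor Tgfbr1 (0.77) were higher with PTH, and the ligand Tgfb2 (-0.60) and Inhba (-0.58) were higher with YKL-05-093. The 4 and 4 became 0 and 1 without PTH replicate 1 and 2 and 1 without PTH replicate 2, and in the latter fit 1 member was past 2-fold.

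In 5 further lists 0 genes were more than 2-fold apart, and their smaller differences stand beside the 9.95% of all genes tested that passed without the fold limit. Of 17 tested clock genes, 0 were called, 2 were higher with PTH (Arntl, 0.67, and Per2, 0.62) and 6 higher with YKL-05-093, led by Nfil3. Of 34 tested cell cycle genes, 0 were called and 28 did not pass. Ccnd1, which encodes cyclin D1 and is also on the ERK list, was highest at 0.79. Of 28 tested genes of cholesterol and fatty acid synthesis, 0 were called, 2 were higher with PTH (Elovl6, 0.51, and Scd1, 0.44) and 6 higher with YKL-05-093, among them Sqle (-0.37) and Hsd17b7 (-0.38). Of 23 tested genes of the unfolded protein and stress response, 0 were called and 17 did not pass, with Atf3 at -0.58 the furthest. In the lists of cell cycle, cholesterol and stress genes 0 passed without PTH replicate 1 or without PTH replicate 2, and in the clock list 0 and 1, and 0 and 2, passed. Of 4 tested vitamin D genes, 0 passed. Vdr, the vitamin D receptor, had 59.6 and 56.9 RPKM with PTH, 54.7 and 54.9 with YKL-05-093 and 4.41 and 3.31 with vehicle, and its difference of 0.09 (95% confidence interval -0.06 to 0.23, adjusted p = 0.506) did not pass. Among the markers of other cell types, Col2a1 was called higher with PTH (1.71 and 1.54 against 0.730 and 0.771 RPKM), a call lost without PTH replicate 1, PTH replicate 2 or YKL-05-093 replicate 1, while Sox9 (-0.74), Kdr (-0.70) and Pparg (-0.93) were lower with PTH below 2-fold. The summed level of the 6 chondrocyte markers was 3.46 and 3.80 RPKM with PTH and 3.74 and 3.91 with YKL-05-093.

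Called differences can arise on either side of vehicle, and the vehicle values describe where each treatment lay. Among the 104 genes higher with PTH, the vehicle mean was nearer to YKL-05-093 for 70 (67.3%) and nearer to PTH for 34. Among the 67 genes higher with YKL-05-093 it was nearer to YKL-05-093 for 54 (80.6%), and over all genes tested for 57.2%. The vehicle mean lay between the means of both treatments for 41 of the 104, 30 of the 67 and 3076 of all 13853 genes tested. Both vehicle libraries lay strictly between the hormone and inhibitor libraries for 16 called genes higher with PTH and 9 higher with YKL-05-093. This stricter count took only genes with at least 50 reads on average, which left out 24 of the 104 and 9 of the 67. The same count over all genes tested was not made. Called genes have a gap between the treatments that leaves room for vehicle, so these counts are a description. Genes with vehicle strictly between were ranked by the distance of the vehicle mean log2 value to the nearer treatment mean. On the PTH side the first were Ccl2, Ccl7, Hes1, Fosl1, Ifi204 and the antisense RNA Gm13705. Ifi204, an interferon-inducible gene, had 12.95 and 13.39 RPKM with PTH, 4.86 and 4.81 with YKL-05-093 and 9.01 and 9.75 with vehicle. On the other side they were Grhl3, Gli1, Fam46c, Mylk3, Rhbdl2 and Slc13a5. Slc13a5, a citrate transporter, had 18.4 and 15.4 RPKM with PTH, 36.2 and 44.4 with YKL-05-093 and 32.0 and 32.7 with vehicle. Slc13a5 lost its call without PTH replicate 2, while Gm13705, Mylk3, Fam46c and Rhbdl2 lost theirs without PTH replicate 1 and without PTH replicate 2. Fam46c also lost it without YKL-05-093 replicate 2, and Rhbdl2 without YKL-05-093 replicate 1. The vehicle pair was the least alike of the 3 pairs, and whether it shared a solvent with the YKL-05-093 libraries cannot be told. These positions are therefore a description without a test.

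Some of the named genes share exons with a gene on the opposite strand in the annotation, among them Smpd3 (with Prmt7), Slc7a7 (Oxa1l), Notum (Notumos), Fosl1 (Ccdc85b), Phospho1 (Abi3), Gli1 (Arhgap9), Pdgfa (6330403L08Rik) and Fam69c (D030046N08Rik). The libraries were directional, but the strand setting of the counting is not given in the sources used here, and without it reads of such a pair cannot be told apart. Cd200, which encodes a membrane glycoprotein, was higher with YKL-05-093 by less than 2-fold (-0.63, adjusted p = 0.0309), with 1.05 and 1.01 RPKM with PTH, 1.37 and 1.98 with YKL-05-093 and 5.02 and 5.42 with vehicle.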

How the data were processed

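Ocy454 cells were treated with vehicle, PTH or YKL-05-093, with 2 libraries per condition, from rRNA-depleted RNA made into directional libraries. Base calling with CASAVA 1.7 and mapping with STAR to mm10 are named in the submitters' processing notes. The authors counted reads per gene with HTSeq 0.6.0 on Ensembl release 75 and deposited the values as RPKM, linear and without scaling between libraries. The 6 tables of single libraries repeat the columns of the series table, and 0 columns of other samples were present.

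Whole reads were worked back from the steps between RPKM values, and they sum to 99.7% of the recovered library totals. They set depth and the spread model only. limma 3.58.1 in R 4.3.3 was fitted to log2(RPKM + 0.1) of the 4 libraries, keeping genes that reached 0.5 RPKM in 2 or more of them, with the prior variance trended on mean log2 reads. The fit was tested on simulated data. Genes were called at a Benjamini-Hochberg adjusted p under 0.05 and more than 2-fold. Pairing by replicate number was not used. Coordinates come from GENCODE M21 (GRCm38), and promoters from RefSeq (GRCm38.p6). At 3 reads a gene of 2 kilobases has between 0.0694 and 0.0786 RPKM in these 4 libraries, and a difference between groups that are both at or under this floor was not detectable.

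Genes were named by a rule: the 15 called genes with the largest difference in each direction among those with at least 50 mean reads and no overlap between groups, up to 6 per direction whose vehicle libraries lie between, the genes the study singles out, and called members of 27 gene lists (or, where a list had none, its furthest member). The members, lists and settings were chosen with earlier results of these data known. A symbol with several identifiers was counted once. Alternatives changed the pseudocount, filter, scaling, variance model, fold limit, libraries in the fit and test (voom on recovered reads), and removed length and GC trends or short and mitochondrial genes. Some genes that the rule names are not reported here.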

Additional observations from a re-analysis of the deposited data

How the results depend on the processing

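The number of called genes (171, with 104 higher with PTH and 67 higher with YKL-05-093) moved by more than 1.5 times under some alternatives. A pseudocount of 1 gave 92 genes (67 and 25), which shrinks the differences of low genes by construction. With all 6 libraries in 1 fit, 102 genes were called (62 and 40), a fit that also carries the wider spread of the vehicle pair. Without a trend in the prior variance, 41 genes were higher with YKL-05-093, and the cause was not tested. A fold limit of 1.5 gave 534 genes (297 and 237) and no fold limit 1379 (669 and 710). Leaving out 1 library gave between 66 and 250 genes, between 34 and 173 higher with PTH and between 24 and 77 higher with YKL-05-093. The count without a filter on low values was 149, of which 88 were among the 171. Voom on recovered reads called 195, of which 164 were among them. Quantile normalization called 89 and 84.

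With the replicate number as a block, 198 genes were called, 126 higher with PTH and 72 higher with YKL-05-093. Over genes, the differences between replicate 1 and 2 of PTH and of YKL-05-093 correlated at -0.0758, so the numbers were taken as names only. Of the 72 called genes named by the rule, 27 kept their call in all alternatives, and none of the 72 changed direction in any of them. The not called gene Cd68 changed sign without PTH replicate 2 (0.0467) and without YKL-05-093 replicate 1 (0.0041), with a range of -0.1826 to 0.0467 over the 4 libraries left out. Depth limits genes near 0.5 RPKM: 33 of the 171 called genes had fewer than 50 reads on average, and p-values measure only the spread between these libraries.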

Other observations

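Small nuclear and nucleolar RNAs belonged to none of the gene lists. Of 566 tested, 13 were called higher with PTH and 0 higher with YKL-05-093, where 0.751% and 0.484% of all genes tested were. Without the fold limit 67 were higher with PTH and 0 higher with YKL-05-093, where 4.83% and 5.13% of all genes tested were. The median difference of these RNAs was 0.54, against 0.01 over all genes tested. Their summed level was 129675 and 138608 RPKM with PTH, and 143967 and 75582 RPKM with YKL-05-093, so the YKL-05-093 libraries differed from each other by more than the groups did. Genes under 300 bases took 2.40% and 2.72% of the reads with PTH and 2.65% and 1.52% with YKL-05-093, and the part of this in the 13 calls was not tested. Snord49b, a guide of RNA methylation, had 542 and 727 RPKM with PTH and 342 and 281 with YKL-05-093.

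Genes of the Hedgehog pathway and of thyroid hormone inactivation were picked after their values were seen, and their differences are descriptions. Ihh, which encodes the ligand Indian hedgehog, had 0.266 and 0.301 RPKM with PTH, 0.9496 and 1.087 with YKL-05-093 and 0.983 and 1.13 with vehicle. Gli1, a transcription factor and target of the pathway, had 0.520 and 0.488 RPKM with PTH and 1.55 and 1.87 with YKL-05-093. The receptor Ptch1, also a target, had 7.66 and 6.58 RPKM with PTH and 7.41 and 8.53 with YKL-05-093, which overlap. Dio3os, the transcript antisense to Dio3, had 1.38 and 1.27 RPKM with PTH and 0.540 and 0.340 with YKL-05-093, in the same order as Dio3. The hair keratins Krt31 and Krt33b are near-identical copies of each other. Krt31 had 1.21 and 1.03 RPKM with PTH, 0.376 and 0.521 with YKL-05-093 and 0.0726 and 0 with vehicle.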
